A study of Mus musculus with 8 samples.

Results

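The transcripts of 10 genes for the breakdown of the branched-chain amino acids (BCAA) leucine, isoleucine and valine were examined in fiber cells (FC) of the mouse lens after exposure to cigarette smoke (CS) and in age-matched, untreated control (Ct) mice. The genes are *Bcat1*, *Bcat2*, *Bckdha*, *Bckdhb*, *Dbt*, *Bckdk*, *Ivd*, *Mccc1*, *Hibadh* and *Pccb*, chosen by name, and each was found on 1 row among the 35275 genes listed. RNA sequencing was done on 4 CS and 4 Ct libraries, all from C57BL/6 mice (C57BL/6J in the methods of the study), and each library was a separate pool of lens FC from 4 mice, taken from the right eyes after the epithelium had been removed under a microscope. The CS mice had been kept in a whole-body smoke chamber from around birth for 3.5 months, for 5 hours a day on 5 days a week, whereas the Ct mice had no smoke exposure. In each group, male and female pools were used in equal number. Which libraries came from males is not given in the sources used here, so sex was not a term in any comparison. Gene expression is given as FPKM, the number of sequenced fragments scaled by gene length and by sequencing depth.

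The BCAA are essential amino acids, and their breakdown takes place mainly in mitochondria. A transaminase first removes the amino group, either BCAT1 in the cytosol or BCAT2 in mitochondria. The branched-chain α-keto acid dehydrogenase (BCKD) complex then makes the irreversible step to acyl-CoA: its E1 component is built from the products of *Bckdha* and *Bckdhb*, its E2 core from that of *Dbt*, and its E3 component from that of *Dld*, and the complex is switched off by the kinase encoded by *Bckdk* and switched on by the phosphatase encoded by *Ppm1k*. Separate enzymes finish the breakdown of each amino acid, among them IVD and the biotin-dependent carboxylase with the MCCC1 subunit for leucine, HIBADH for valine, and the biotin-dependent propionyl-CoA carboxylase with the PCCB subunit for isoleucine and valine. Lens FC lose their mitochondria and nuclei as they mature. In pooled tissue, fewer cells of a type and less RNA per cell cannot be told apart.

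Within the first step of the pathway the levels lay far apart, since *Bcat2* was present in every library and *Bcat1* was close to the limit of detection in all of them. The 250 bases before the annotated starts of these genes are shown to set their sequences beside these levels (RefSeq, GRCm38.p6). The *Bcat1* window lies on the minus strand at chr6:145076158-145076407 and the *Bcat2* window on the plus strand at chr7:45569903-45570152. Capitals mark CG dinucleotides, which read the same on both strands.
Bcat1: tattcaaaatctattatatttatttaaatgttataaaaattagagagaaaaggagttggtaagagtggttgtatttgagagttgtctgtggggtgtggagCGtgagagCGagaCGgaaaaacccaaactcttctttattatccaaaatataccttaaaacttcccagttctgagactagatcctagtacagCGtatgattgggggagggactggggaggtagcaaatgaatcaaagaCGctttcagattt
Bcat2: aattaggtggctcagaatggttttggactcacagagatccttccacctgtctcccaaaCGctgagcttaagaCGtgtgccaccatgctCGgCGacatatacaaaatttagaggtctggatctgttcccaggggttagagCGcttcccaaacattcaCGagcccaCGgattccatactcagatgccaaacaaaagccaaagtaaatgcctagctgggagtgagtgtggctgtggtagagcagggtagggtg
The *Bcat1* window held 5 CG and the *Bcat2* window 7, and 55.6% and 46.3% of the 32851 windows in the RefSeq table held at least as many. Both genes have 2 windows in the table, and gene-level FPKM do not show which start was used in lens FC. Of the 10 genes, 9 had a window, and in these the number of CG ran from 2 in *Mccc1* to 20 in *Hibadh*, beside a median of 6 over all windows. No window was found for *Dbt*.

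The libraries were similar in depth, with an estimated 18100000 to 23300000 fragments each. Lens FC markers (11 genes, among them *Cryaa*, *Crybb2* and *Mip*) summed to 311816 to 321112 FPKM in Ct and 302700.4 to 314619 FPKM in CS, so crystallin transcripts took a large part of every library, and lens epithelium markers (9 genes) summed to 154 to 230 FPKM in Ct and 147 to 186 FPKM in CS. Of 8 epithelium markers tested, 7 had a negative log2 fold change (median -0.17), as did 4775 of all 9794 genes tested. One of the 8, *Npnt*, passed an unadjusted limma p of 0.05, lower in CS, beside 2.08% of all genes (exact permutation test of *Npnt*, p = 0.0571). Markers of neighbouring eye tissue differed between the groups. The 9 rod photoreceptor markers summed to 10.8 to 29.3 FPKM in Ct and 33.2 to 93.0 FPKM in CS (exact permutation test, p = 0.0286, the smallest value that 4 against 4 libraries allow). Of the 9, 8 were higher in every CS library than in every Ct library, beside 1.8% of all genes. Several of these 8 had Ct means of only 0.561 to 0.907 FPKM. They passed the minimum of 1 FPKM only through their CS mean, so for them that share is not an even comparison. The 6 pigment epithelium markers summed to 0.922 to 1.85 FPKM in Ct and 2.70 to 25.6 FPKM in CS (exact permutation test, p = 0.0286), with *Best1* at 0 in all libraries. Both sums were highest in CS replicate 3. Skeletal muscle markers (7 genes) summed to 4.62 to 8.72 FPKM. Macrophage and blood markers (6 of 7 genes found) summed to 0.284 to 2.02 FPKM in Ct, 0.586 to 3.89 FPKM in CS replicates 1 to 3 and 20.8 FPKM in CS replicate 4, where the globin genes *Hba-a1* and *Hbb-bs* were at 9.46 and 11.1 FPKM. The part of other cells in the levels of the BCAA genes was not tested. Each main comparison was also made without CS replicate 3, but this does not separate other cells from exposure. In CS replicates 1, 2 and 4 the rod sums were 42.4, 56.9 and 33.2 FPKM, still above all Ct libraries. The pigment epithelium sums of these libraries were 4.67, 2.70 and 5.88 FPKM, also above all Ct libraries.

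The first question was whether the genes of BCAA breakdown were expressed at other levels after CS exposure. Of the 10 genes, 9 reached a mean of 1 FPKM in Ct or in CS and were compared by limma on log2(FPKM + 0.1). None of the 9 passed an unadjusted p of 0.05 in either direction, beside 2.75% of all 9794 genes tested that were higher in CS at that threshold and 2.08% that were lower (269 and 204 genes, but 200 and 285 when FPKM were rescaled without the crystallins). None of the 9 passed an adjusted p of 0.05, which 0.0102% of all genes did, and the adjusted p-values of the 9 genes ran from 0.956 to 0.996 (limma, Benjamini-Hochberg over all genes tested). In none of them did the 4 CS libraries all lie above or all lie below the 4 Ct libraries, beside 1.8% and 1.29% of all genes. None passed the unadjusted threshold under any other processing in which it could be tested, including limma-voom on recovered fragments and the analysis without CS replicate 3. *Dbt*, *Ivd* and *Mccc1* were not tested at a minimum of 5 FPKM, nor *Dbt* without CS replicate 2.

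The fitted differences and their intervals show what sizes of change the 4 against 4 libraries still allow. The log2 fold changes (CS minus Ct, on the log2(FPKM + 0.1) scale) ran from -0.12 for *Bckdk* to 0.28 for *Dbt*, with a median of 0.050 beside 0.0043 for all genes tested. The median absolute log2 fold change was 0.051 for the 9 genes and 0.084 for all genes. One of the 9, *Dbt*, passed the filter only through its CS mean. The narrowest 95% interval was that of *Hibadh*, 0.945- to 1.13-fold, and the widest was that of *Dbt*, 0.835- to 1.75-fold.

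**Figure D1:**
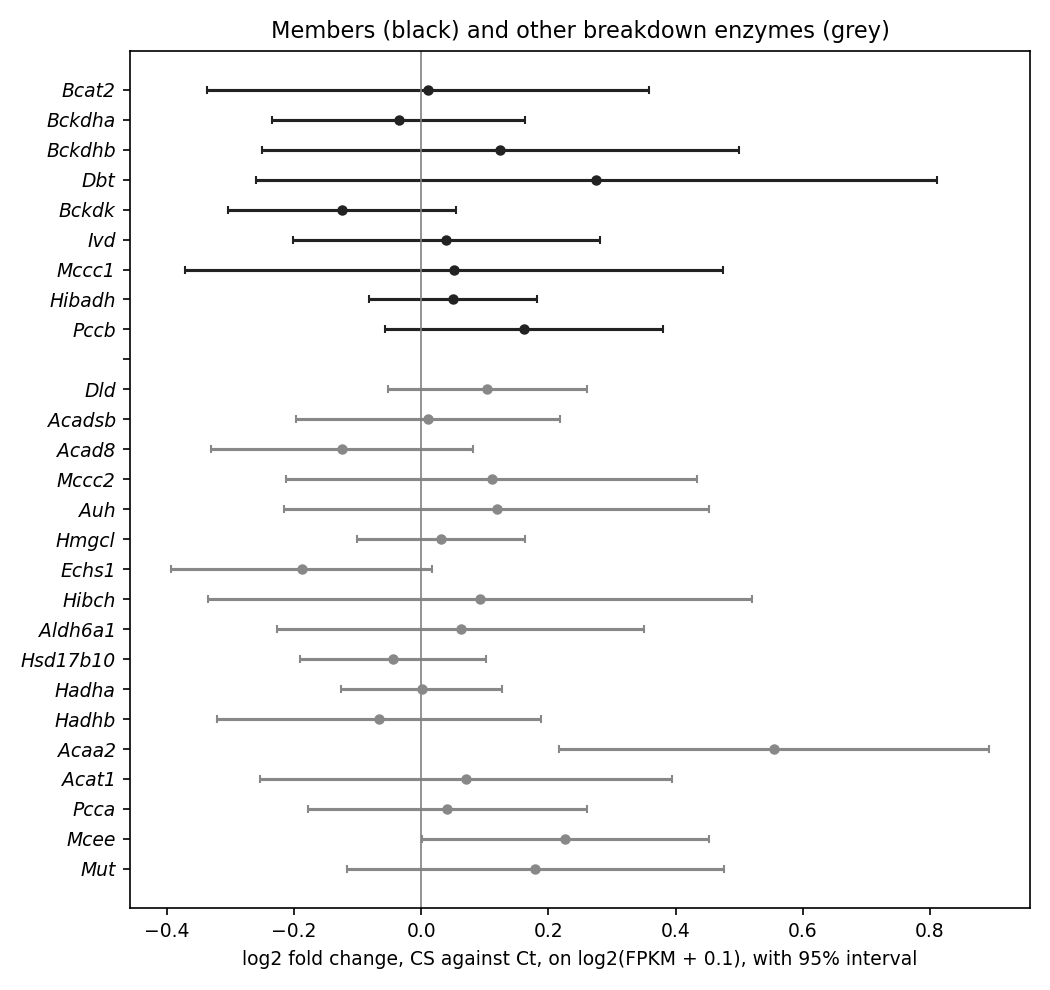
Log2 fold changes of CS against Ct lens FC with their 95% intervals from limma on log2(FPKM + 0.1), for the 9 tested genes (black) and for 17 other enzymes of BCAA breakdown (grey). All 9 black intervals span 0, and the grey intervals of *Acaa2* and *Mcee* lie above 0.

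*Bcat1*, the cytosolic transaminase gene (chr6:144993835-145076184, minus strand, GRCm38), was listed at 0.00642, 0.0129, 0.0329 and 0.0423 FPKM in Ct replicates 1 to 4 and at 0.0363, 0.0387, 0.0249 and 0.0118 FPKM in CS replicates 1 to 4. These values rest on 1 to 7 fragments per library, 15 in all Ct libraries (exact Poisson 95% interval 8.40 to 24.7) and 19 in all CS libraries (11.4 to 29.7). The ratio of CS to Ct, with depth taken into account, was 1.19 (exact 95% interval 0.572 to 2.51, covering counting error only). *Bcat1* was under the filter and was not tested, and changes inside that interval were not detectable at this depth.

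*Bcat2*, the mitochondrial transaminase gene (chr7:45570153-45589711, plus strand), stood at 8.94, 9.83, 6.82 and 10.01 FPKM in the Ct libraries and at 6.88, 9.07, 11.7 and 8.49 FPKM in the CS libraries. The lowest values, Ct replicate 3 and CS replicate 1, came from different groups, and the highest was CS replicate 3. The log2 fold change was 0.011 ± 0.16 (SE), with a 95% interval of 0.791- to 1.28-fold (exact permutation test, p = 0.914), and without CS replicate 3 the log2 fold change was -0.12. The mean FPKM of *Bcat2* was 376 times that of *Bcat1* in Ct and 323 times in CS, and 3100 fragments were counted for *Bcat2* over the 8 libraries beside 34 for *Bcat1*. An antisense gene, 0610005C13Rik, shares 622 exon bases with *Bcat2* (15.9% of its exon length) and was listed at 0.0454 to 0.336 FPKM. Whether the counting used strand is not given in the sources used here.

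Within the BCKD complex, both E1 genes were several times more abundant than the E2 gene, and none of its genes passed the test between CS and Ct. *Bckdha*, the E1α gene (chr7:25629946-25658981, minus strand), stood at 14.7, 18.4, 17.2 and 18.1 FPKM in Ct and at 17.6, 15.0, 18.5 and 15.8 FPKM in CS. The groups overlapped over nearly their whole range, and the log2 fold change was -0.035 ± 0.091 (SE, 95% interval 0.850- to 1.12-fold, exact permutation test, p = 0.8286). *B3gnt8*, a gene for a glycosyltransferase on the opposite strand, shares 1171 exon bases with *Bckdha*, 61.7% of its exon length, and was listed at 0 to 0.412 FPKM. Without strand, reads from this stretch cannot be told apart.

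*Bckdhb*, the E1β gene (chr9:83925145-84124240, plus strand), stood at 6.40, 10.8, 7.98 and 11.3 FPKM in Ct and at 8.89, 9.91, 11.9 and 8.48 FPKM in CS. Ct replicates 1 and 3 were the lowest libraries and CS replicate 3 was the highest. The log2 fold change was 0.12 ± 0.17 (SE, 95% interval 0.841- to 1.41-fold, exact permutation test, p = 0.600), and without Ct replicate 1 its sign turned, to -0.032.

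*Dbt*, the gene of the E2 core (chr3:116513070-116549981, plus strand), was the least abundant of the genes tested, at 0.824, 0.814, 0.822 and 0.822 FPKM in Ct and at 0.676, 1.33, 1.12 and 1.04 FPKM in CS. The 4 Ct libraries were almost equal, CS replicate 1 was below all of them and the other 3 CS libraries were above all of them. The values rest on 47 to 101 fragments per library. The log2 fold change was 0.28 ± 0.24 (SE, 95% interval 0.835- to 1.75-fold, limma p = 0.283, exact permutation test, p = 0.143). Without CS replicate 1 the log2 fold change was 0.45 and still did not pass the threshold, and without CS replicate 2 *Dbt* fell under the filter.

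*Bckdk*, the gene of the kinase that inactivates the complex (chr7:127904082-127910221, plus strand), stood at 10.1, 10.1, 9.05 and 10.2 FPKM in Ct and at 9.73, 8.55, 8.28 and 9.58 FPKM in CS. CS replicates 2 and 3 were below all Ct libraries, whereas CS replicates 1 and 4 lay above Ct replicate 3. The log2 fold change was -0.12 ± 0.082 (SE, 95% interval 0.810- to 1.04-fold, exact permutation test, p = 0.171). Its sign was negative under every setting tried, without passing the threshold under any.

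**Figure D2:**
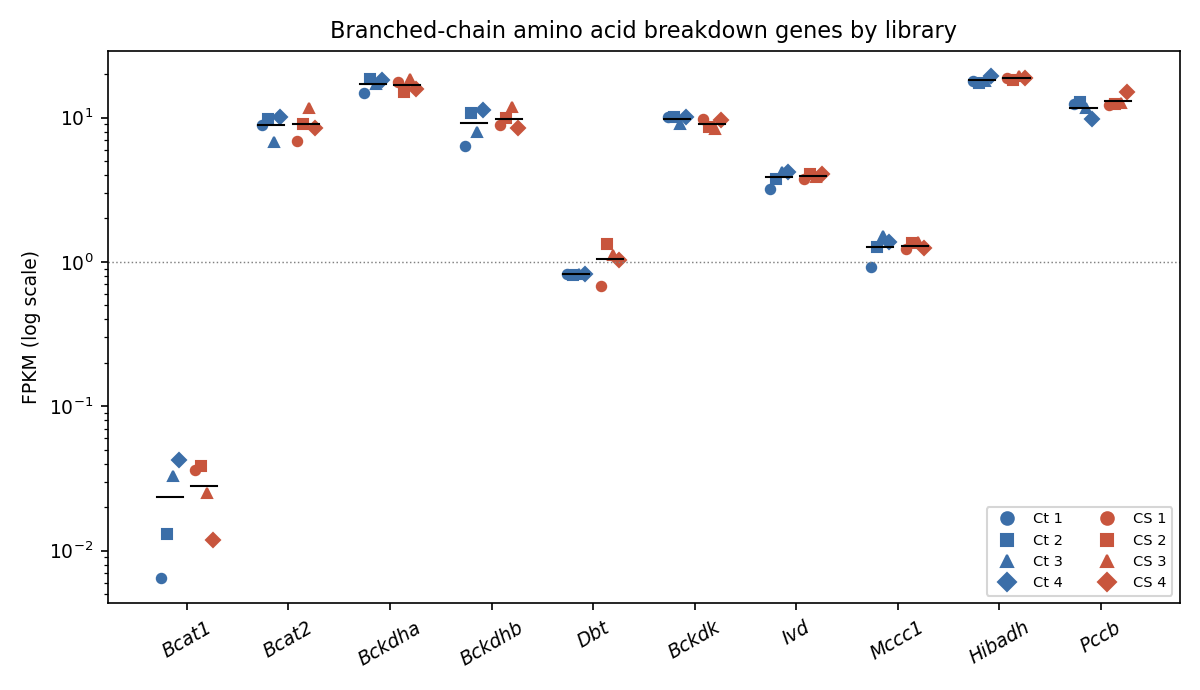
FPKM of the 10 genes in each library (log scale), with Ct in blue, CS in red, 1 symbol per replicate number and black lines for the group means. The dotted line marks 1 FPKM. *Bcat1* lies under 0.05 FPKM in all libraries, *Dbt* and *Mccc1* lie near the line, and the other 7 genes lie between 3.21 and 19.4 FPKM.

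For the enzymes of the later steps, most CS libraries lay inside the range of the Ct libraries. *Ivd* (chr2:118861954-118882909, plus strand) encodes isovaleryl-CoA dehydrogenase of leucine breakdown, and stood at 3.21, 3.74, 4.22 and 4.21 FPKM in Ct and at 3.72, 4.06, 3.89 and 4.06 FPKM in CS. The whole CS range lay inside the Ct range, and the log2 fold change was 0.040 ± 0.11 (SE, 95% interval 0.870- to 1.21-fold). *Mccc1* (chr3:35959312-36000678, minus strand) encodes the biotin-carrying subunit of methylcrotonyl-CoA carboxylase, which acts directly after IVD. It stood at 0.916, 1.26, 1.51 and 1.38 FPKM in Ct and at 1.23, 1.35, 1.37 and 1.24 FPKM in CS, again with the CS range inside the Ct range, and its log2 fold change was 0.051 ± 0.19 (SE, 95% interval 0.773- to 1.39-fold). For both genes Ct replicate 1 was the lowest library, and without it the log2 fold changes were -0.042 and -0.085. *Mccc1* shares 94 exon bases, only 0.858% of its exon length, with the antisense gene Gm15952. That gene was listed at 0.312 to 2.00 FPKM, a range that spans the levels of *Mccc1*. Longer stretches are shared with the antisense gene Mccc1os (198 bases, 1.81%, listed at 0 to 0.109 FPKM) and with a processed pseudogene (321 bases, 2.93%, without a listed value).

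*Hibadh* (chr6:52546228-52640389, minus strand), the gene of 3-hydroxyisobutyrate dehydrogenase of valine breakdown, had the highest mean of the 10 genes. It stood at 17.8, 17.5, 18.0 and 19.4 FPKM in Ct and at 18.8, 18.3, 19.4 and 18.8 FPKM in CS. The CS libraries lay inside the Ct range, and the log2 fold change was 0.050 ± 0.060 (SE, 95% interval 0.945- to 1.13-fold).

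*Pccb* (chr9:100982032-101034898, minus strand) encodes the carboxyltransferase subunit of propionyl-CoA carboxylase. It stood at 12.4, 12.9, 11.7 and 9.77 FPKM in Ct and at 12.3, 12.3, 12.6 and 15.0 FPKM in CS. Ct replicate 4 was the lowest and CS replicate 4 the highest library, and the other 6 lay between 11.7 and 12.9 FPKM. The log2 fold change was 0.16 ± 0.10 (SE, 95% interval 0.961- to 1.30-fold, limma p = 0.133, exact permutation test, p = 0.257), and over all other settings its limma p was at least 0.0743. The difference leaned on both of these libraries, since it was 0.079 without Ct replicate 4 and 0.095 without CS replicate 4.

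The order of the levels was nearly the same in both groups. In Ct it ran from *Hibadh* through *Bckdha*, *Pccb*, *Bckdk*, *Bckdhb*, *Bcat2*, *Ivd*, *Mccc1* and *Dbt* to *Bcat1*, and in CS *Bckdhb* and *Bckdk* changed places. Between neighbours in this order, the ranges over the 4 libraries did not overlap in either group for *Bcat2* and *Ivd*, for *Ivd* and *Mccc1*, and for *Dbt* and *Bcat1*. They were apart only in Ct for *Bckdha* and *Pccb* and for *Mccc1* and *Dbt*, and only in CS for *Pccb* and *Bckdk*. The neighbours *Hibadh* and *Bckdha*, *Bckdk* and *Bckdhb*, and *Bckdhb* and *Bcat2* overlapped in both groups. Set among all genes tested, mean levels stood at percentiles 83.1 for *Hibadh*, 81.8 for *Bckdha*, 76.4 for *Pccb*, 70.7 for *Bckdhb*, 70.6 for *Bckdk*, 69.3 for *Bcat2*, 44.0 for *Ivd*, 8.96 for *Mccc1* and 1.03 for *Dbt*. Levels of different genes depend on the length that was used. The gene length implied by the deposited values of *Hibadh* was 1825 bases, whereas all its annotated exons together cover 10179 bases, and these lengths were 6750 and 10952 bases for *Mccc1*, 3665 and 5505 bases for *Ivd*, 2081 and 3900 bases for *Bcat2*, and 7832 and 9322 bases for *Bcat1*. The ratio of *Bcat2* to *Bcat1* depends on these lengths too. The implied lengths rest in turn on the estimated depth, which is the value shared by the most genes, 651 of 9085.

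The spread between pools was set beside the spread that counting alone gives, as a description without a test, and it was the larger one in both groups for 5 of the 9 tested genes. The coefficient of variation (CV) of *Bckdhb* was 25.6% in Ct and 15.5% in CS, where counting alone gives 6.09% and 5.67%. For *Bcat2* it was 16.5% and 22.1% beside 5.20% and 4.97% from counting. *Ivd* and *Mccc1* had 12.4% and 20.1% in Ct beside 5.91% and 7.58% from counting, but 4.12% and 5.75% in CS beside 5.66% and 7.27%. *Hibadh* was the steadiest of the abundant genes, with 4.74% in Ct and 2.33% in CS beside 3.86% and 3.67% from counting. *Dbt* had a CV of 26.1% in CS, where counting gives 11.6%, but only 0.514% in Ct, where counting gives 13.5%. A spread this far under the counting error cannot be read as the variation of *Dbt* between Ct pools.

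**Figure D3:**
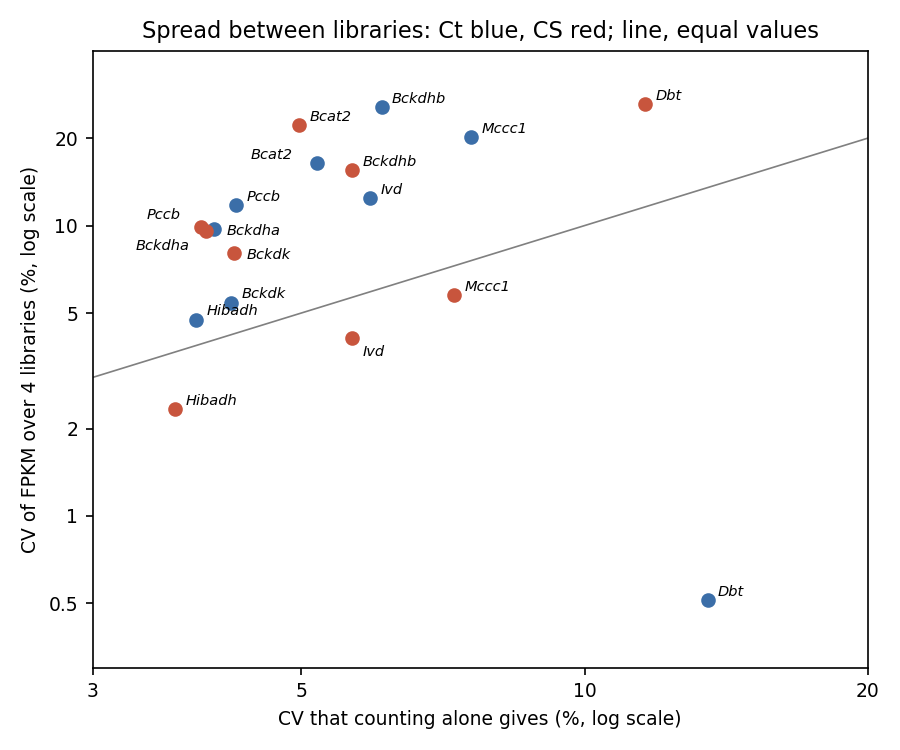
CV of FPKM over the 4 libraries of a group (vertical, %, log scale) against the CV that counting alone gives for that number of fragments (horizontal, %, log scale), with Ct in blue and CS in red for the 9 tested genes. The line marks equal values. *Bckdhb* and *Bcat2* lie well above it in both groups, and *Dbt* lies at 26.1% in CS and at 0.514% in Ct.

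Partner genes were then compared within each library. The ratios printed are of FPKM, whereas the tests and log2 differences are of FPKM + 0.1, so that the pseudocount weighs on the ratios of *Bcat1* and, less, on those of *Dbt* and *Ppm1k*. None of the 6 ratios passed the test between CS and Ct (exact permutation tests, two-sided, p from 0.200 to 0.857, all adjusted p at least 0.686 over the 6 ratios). *Bckdha* to *Bckdhb*, both E1 subunits, was 1.94 ± 0.341 in Ct and 1.73 ± 0.230 in CS (SD, n = 4 each). *Bckdha* to *Dbt*, E1 to E2, was 20.9 ± 2.11 in Ct and 17.2 ± 6.26 in CS, and its 8 values ran from 11.3 in CS replicate 2 to 26.0 in CS replicate 1. Without CS replicate 1 the log2 difference of this ratio went from -0.31 to -0.51 (exact permutation test, p = 0.0286, the smallest value that 3 against 4 libraries allow). Without CS replicate 2 it went to -0.14 (exact permutation test, p = 0.543). Each of the 8 libraries was left out in turn for each of the 6 ratios, and the p-values of these runs were not adjusted.

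*Bckdk* to *Ppm1k*, the kinase to the phosphatase of BCKD, was 15.2 ± 2.64 in Ct and 15.0 ± 3.63 in CS (SD, n = 4 each), although *Ppm1k* itself was only at 0.428 to 0.793 FPKM. The leucine carboxylase pair, *Mccc1* to *Mccc2*, was 0.331 ± 0.106 in Ct and 0.307 ± 0.0354 in CS, with *Mccc2* more abundant than its partner in all 8 libraries. The propionyl-CoA carboxylase pair, *Pccb* to *Pcca*, was 3.57 ± 0.225 in Ct and 3.89 ± 0.374 in CS, and here the transcript of the carboxyltransferase subunit was the more abundant one in all 8 libraries. Without CS replicate 2, the log2 difference of this pair was 0.16 in place of 0.12 (exact permutation test, p = 0.0286, not adjusted). It was 0.057 without CS replicate 4 and 0.076 without Ct replicate 4 (exact permutation tests, p = 0.457 each). *Bcat1* to *Bcat2* was 0.00277 in Ct and 0.00327 in CS, with the numerator resting on a few fragments and lying under the pseudocount, so that the pseudocount sets the log2 difference of this pair (0.043, but 0.24 with a pseudocount of 0.01).

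**Figure D4:**
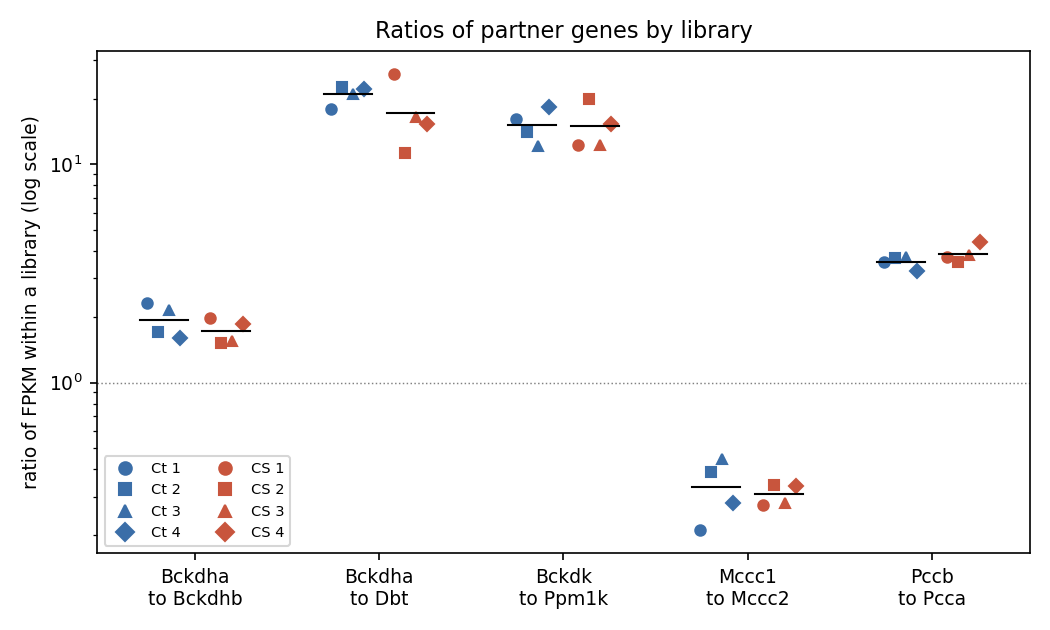
Ratio of FPKM of partner genes within each library (log scale), with Ct in blue, CS in red, 1 symbol per replicate number and black lines for group means. *Bckdha* to *Dbt* spans 11.3 to 26.0 in CS and 17.9 to 22.6 in Ct, and the groups overlap for all 5 pairs shown.

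The complexes for pyruvate and 2-oxoglutarate are built from the same kinds of components as BCKD, and they were set beside it as a description without a test. Over the 8 libraries, the level of *Bckdha* was 11.3 to 26.0 times, and that of *Bckdhb* 7.47 to 13.8 times, the level of *Dbt*. In the pyruvate dehydrogenase complex, the ratio of the E1α gene *Pdha1* to the E2 gene *Dlat* ran from 0.678 to 1.92 and that of the E1β gene *Pdhb* to *Dlat* from 3.05 to 5.95. In the 2-oxoglutarate dehydrogenase complex, the ratio of *Ogdh* to *Dlst* ran from 1.08 to 1.43. The level of *Dld*, whose product is the E3 component of all of these complexes, was 17.2 to 33.8 times that of *Dbt*. Of 13 genes listed for both complexes and their kinases and phosphatases, 9 were tested and none passed an unadjusted p of 0.05, beside 2.75% of all genes higher and 2.08% lower (median log2 fold change 0.026), with *Pdhb* the most abundant (mean 17.2 FPKM) and *Pdk4* the least (0.0640 FPKM).

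Among the other enzymes of BCAA breakdown, *Acaa2* and *Mcee* were higher in CS before adjustment. Of 18 listed, 17 were tested and *Ppm1k* was under the filter, and 2 passed an unadjusted p of 0.05, both higher in CS (beside 2.75% of all genes higher and 2.08% lower), while none passed after adjustment over all genes (limma, smallest adjusted p = 0.956). The log2 fold changes were positive in 13 and negative in 4, with a median of 0.062. *Acaa2*, the gene of a mitochondrial thiolase, stood at 1.76, 1.91, 1.33 and 1.64 FPKM in Ct and at 2.19, 2.77, 2.73 and 2.23 FPKM in CS, so that all CS libraries were above all Ct libraries. Its log2 fold change was 0.55 ± 0.15 (SE, limma p = 0.00392, adjusted p = 0.956, exact permutation test, p = 0.0286), on 45 to 97 fragments per library, and it kept an unadjusted p under 0.05 without any 1 of the 8 libraries. *Echs1*, the gene of an enoyl-CoA hydratase, passed it after rescaling without crystallins, after quantile normalization and without Ct replicate 1, lower in CS each time, and *Mut*, the gene of methylmalonyl-CoA mutase, passed it without CS replicate 4, higher in CS. *Mcee*, the gene of methylmalonyl-CoA epimerase in the route from propionyl-CoA, stood at 22.9, 18.9, 21.3 and 22.4 FPKM in Ct and at 20.2, 28.9, 26.1 and 25.6 FPKM in CS. CS replicate 1 lay inside the Ct range (log2 fold change 0.23 ± 0.10 SE, limma p = 0.0492, adjusted p = 0.956, exact permutation test, p = 0.114), and *Mcee* no longer passed the unadjusted threshold when any of Ct replicates 2, 3 and 4 or CS replicates 2, 3 and 4 was left out. *Hsd17b10*, the gene of a dehydrogenase of isoleucine breakdown, had the highest mean of these enzymes, 76.6 FPKM, and *Ppm1k* the lowest, 0.645 FPKM.

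Genes that bring BCAA into the cell or supply cofactors to these enzymes did not pass the unadjusted threshold in either direction, beside 2.75% of all genes higher and 2.08% lower. Of 7 carriers, 4 were tested (median log2 fold change -0.12). *Slc7a5*, the light chain of a transporter for large neutral amino acids, had the highest mean, 14.6 FPKM, with 13.8 to 14.6 FPKM in Ct and 13.6 to 15.6 FPKM in CS, and *Slc43a1* was at 0 in all libraries but CS replicate 4, where 1 fragment was counted. *Slc3a2*, the heavy chain gene of the same transporter, was highest in Ct replicate 3 (21.0 FPKM), the library with the highest sum of lens epithelium markers (230 FPKM). The part of epithelium in this value was not tested. Of 11 genes for the supply of thiamine diphosphate, lipoate, biotin or adenosylcobalamin, 9 were tested, and the log2 fold change was negative in 8 of them (median -0.19, beside 0.0043 for all genes, of which 5019 were positive and 4775 negative). When 1 library was left out, 0 to 2 of these genes passed the unadjusted threshold, a count that includes genes not named here. *Lias*, whose product makes lipoate, passed without Ct replicate 3 and without CS replicate 4, and *Mmaa*, a gene of cobalamin handling, passed without CS replicate 4, both lower in CS. With all libraries *Lias* stood at 3.54 ± 0.496 FPKM in Ct and 2.78 ± 0.600 FPKM in CS (SD, n = 4 each). *Mmadhc*, also of cobalamin handling, was the most abundant (mean 22.3 FPKM).

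Finally, it was examined whether the 10 genes varied together from library to library. Among the 45 pairs over 8 libraries, 26 had a positive and 19 a negative Pearson r, with a median of 0.220, and none passed after adjustment over the 45 pairs (exact permutation tests, smallest adjusted p = 0.186). The strongest pair was *Ivd* and *Mccc1*, both of leucine breakdown, with r = 0.927 (exact permutation p = 0.00414, adjusted p = 0.186) and Spearman's rho = 0.881 (exact permutation p = 0.00724, adjusted p = 0.326). Leaving out the 2 libraries with the most extreme levels of *Ivd* gave r = 0.618. Over the 4 Ct libraries r was 0.979 and over the 4 CS libraries 0.329, and their difference was not tested. In CS the CV of both genes (4.12% and 5.75%) was under that from counting alone (5.66% and 7.27%). The r over the CS libraries therefore cannot show whether the relation held in CS. The next smallest p-values belonged to *Bcat1* and *Mccc1* (r = 0.698, exact permutation p = 0.0237), *Dbt* and *Bckdk* (r = -0.737, exact permutation p = 0.0356) and *Bcat1* and *Pccb* (r = -0.663, exact permutation p = 0.0462), each with an adjusted p of 0.477, and *Bcat1* rests on a few fragments. *Bckdha* and *Bckdhb*, the fifth pair in this order, had r = 0.699 (exact permutation p = 0.0571, adjusted p = 0.477) and rho = 0.810 (exact permutation p = 0.0218, adjusted p = 0.327).

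**Figure D5:**
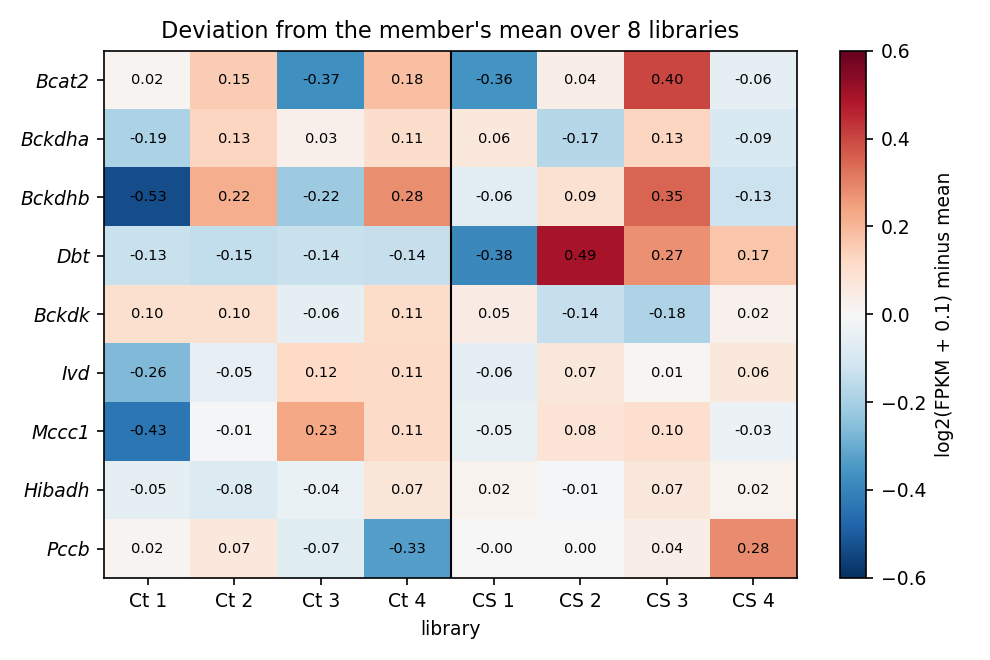
Deviation of log2(FPKM + 0.1) of each gene in each library from the mean of that gene over the 8 libraries, with red above and blue below the mean. Ct replicate 1 is low for *Bckdhb* (-0.53), *Mccc1* (-0.43) and *Ivd* (-0.26), CS replicate 3 is high for *Bcat2* (0.40) and *Bckdhb* (0.35), and *Hibadh* stays between -0.08 and 0.07.

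For each of the 9 tested genes, the gene with the most similar pattern over the 8 libraries was sought among all 9794 genes tested. The 3 highest Pearson r were 0.980 for *Pccb* with *Fundc2* (12.7 to 16.4 FPKM), 0.975 for *Hibadh* with *Pelp1* (1.27 to 2.51 FPKM) and 0.974 for *Dbt* with *Ppdpf* (23.7 to 30.1 FPKM). With 8 libraries and so many genes searched, values of this size are a description of these libraries and were not tested.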

How the data were processed

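The genes and gene lists were chosen with earlier results of these data known. Per the labels, total RNA of lens FC was made into libraries with the NEB Next Ultra RNA kit, sequenced as paired ends, aligned to GRCm38/mm10 with STAR 2.5 and counted with HTSeq 0.6.1. The annotation release and the use of strand are not given in the sources used here. The authors deposited FPKM per gene and library, which are the values used here. The deposited table also holds the authors' own comparison from DESeq2, a log2 fold change and p-values for CS against Ct, which were not used.

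Genes that reached a mean of 1 FPKM in Ct or in CS were tested with limma 3.58.1 in R 4.3.3 (lmFit, eBayes with trend, two-sided) on log2(FPKM + 0.1), with Benjamini-Hochberg adjustment over all 9794 genes. Single genes and ratios were also compared by an exact permutation test over the 70 assignments of 4 against 4 libraries (two-sided). Libraries are pools of different mice, so p-values measure the spread between pools. FPKM values of a gene are whole multiples of the value of 1 fragment, and for 9772 of the 9794 genes (99.8%) they gave whole fragments in all libraries within a tolerance of 0.02. Depth was estimated from these steps with exon lengths of the GENCODE annotation of GRCm38, and the median tested value rested on 313 fragments. limma-voom on these fragments called 2 genes at an adjusted p of 0.05. Counting intervals cover counting error only.

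Named were all 10 genes, other listed genes with an unadjusted p under 0.05, partners in the ratios, the most and least abundant gene of each list, and the 3 most similar gene pairs. Some genes of the cofactor list are not reported here by name. *Slc3a2*, *Lias*, *Mmaa*, *Echs1*, *Mut*, *B3gnt8*, *Best1*, *Npnt*, the globin genes and the antisense genes were named after their values were seen. The exact permutation test of each of the 9 tested genes was added after seeing the data. The statistics were tested on simulated data.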

Additional observations from a re-analysis of the deposited data

Results flagged for a closer look

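In 2 of the 32 groups of 4 libraries examined (each gene and each ratio in each group), 1 library stood apart from the other 3 by Dixon's criterion. Chance flags about 1 in 20 groups, which is 1.6 of 32. *Bckdk* stood at 9.05 FPKM in Ct replicate 3, while the other 3 Ct libraries were at 10.1, 10.1 and 10.2 FPKM. *Pccb* stood at 15.0 FPKM in CS replicate 4, while the other 3 CS libraries were at 12.3, 12.3 and 12.6 FPKM.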

How the results depend on the processing

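The number of BCAA genes with an unadjusted p under 0.05 was 0 under all settings (not all genes passed the filter in each), and their median log2 fold change ran from -0.032 to 0.082 when 1 library was left out. Over all genes, 473 passed an unadjusted p of 0.05 (204 lower, 269 higher in CS). This was 862 with no filter, 226 with a minimum of 5 FPKM and 418 to 525 without 1 library. The split moved to 285 lower and 200 higher after scaling without crystallins, and to 286 and 220 without CS replicate 3. At an adjusted p of 0.05, 1 gene passed (Gm26917), 0 with no filter or without the trend, 2 with limma-voom, 5 with the replicate block and 0 to 1 without 1 library (0 without Ct replicate 4). Of the other breakdown enzymes 2 passed, and 1 with no filter, a minimum of 5 FPKM, TPM, no trend, the replicate block or limma-voom (1 to 3 without 1 library). It stayed at 2 with *Echs1* in place of *Mcee* after scaling without crystallins or quantile normalization, and with *Mut* in its place without CS replicate 4. *Acaa2* kept an unadjusted p under 0.05 in all 19 alternatives (0.0023 to 0.026) and *Mcee* lost it in 13 of 20. Cofactor genes went from 0 to 2 after scaling without crystallins and to 1 with the replicate block (0 to 2 without 1 library). The replicate block rests on the numbers of the libraries, which are pools of different mice. Deviations from the group means correlated at 0.012 to 0.16 between libraries with the same number (mean 0.090, beside -0.030 for different numbers). Such deviations cancel out within each group, so the second mean nearly follows from the first and is no separate comparison. Of 8 libraries, 6 correlated best with their own number, which is a hint from the data only. No BCAA gene passed an unadjusted p of 0.05 with the block.
*Bcat2* went to -0.011 after scaling without crystallins, and the ratio of *Bcat1* to *Bcat2* to -0.0043 with a pseudocount of 1 and 0.24 with 0.01. Without 1 library, log2 fold changes ran from -0.12 to 0.13 for *Bcat2*, -0.11 to 0.015 for *Bckdha*, -0.032 to 0.24 for *Bckdhb*, -0.042 to 0.086 for *Ivd*, -0.085 to 0.14 for *Mccc1*, 0.23 to 0.45 for *Dbt*, -0.16 to -0.084 for *Bckdk*, 0.031 to 0.082 for *Hibadh* and 0.079 to 0.21 for *Pccb*. Log2 differences of the ratios ran from -0.11 to 0.20 for *Bcat1* to *Bcat2*, -0.24 to -0.073 for *Bckdha* to *Bckdhb*, -0.51 to -0.14 for *Bckdha* to *Dbt*, -0.17 to 0.038 for *Bckdk* to *Ppm1k*, -0.24 to 0.095 for *Mccc1* to *Mccc2* and 0.057 to 0.16 for *Pccb* to *Pcca*. No pair of genes passed an adjusted p of 0.05 for co-variation with a pseudocount of 1 or median centring. The causes were not tested. Among the 10 BCAA genes, *Bcat1* (1 to 7 fragments) and *Dbt* (47 to 101) rest on the fewest fragments per library.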
